A study of Homo sapiens with 8 samples.

Results

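Myeloma cells are recognised, and treated, through proteins on their surface. The transcripts of 9 such proteins were followed here among the 63677 genes counted: SDC1 (CD138), CD38, TNFRSF17 (BCMA), SLAMF7 (CS1), CD27, CD28, NCAM1 (CD56), FCRL5 and GPRC5D. They were chosen by symbol, as antigens used to identify plasma cells or as targets of antibodies and engineered T cells, and each symbol was matched to an Ensembl identifier through the gene names the authors deposited. NCAM1 had 2 identifiers, of which the one with the higher summed count was kept.

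RNA was sequenced from the myeloma lines JJN3 and H929 after 24 h in THZ1 at 50 nM or in the vehicle DMSO, with 2 libraries for each line and treatment and 8 in all. THZ1 binds covalently to CDK7, a kinase that phosphorylates the tail of RNA polymerase II, and the comparison asks how the transcription of myeloma cells responds to it. A total of 17476443 to 19194371 reads was counted per library. Levels are given as CPM, counts scaled to a common library total. A gene with no reads could still have had up to 3 counts, or 0.156 to 0.172 CPM by library, which allows for counting error only. The labels give a single dose and time, and nothing says that libraries of a group came from separate cultures, so p-values measure the spread between these libraries, which may be technical.

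Plasma cells lose most B cell antigens as they mature and gain SDC1, a proteoglycan that carries heparan sulfate, and TNFRSF17, a receptor for the survival factors BAFF and APRIL. CD38 is an ectoenzyme that consumes NAD, SLAMF7 a receptor that binds itself on neighbouring cells, and GPRC5D an orphan receptor found on plasma cells and in keratinised tissue. FCRL5 is a B lineage receptor for immunoglobulin G, while CD28 and NCAM1 are proteins of T cells and of neural and natural killer cells that malignant plasma cells often carry, and CD27 is a memory B cell receptor that many myelomas have lost.

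All 6 plasma cell markers examined (IRF4, PRDM1, XBP1, MZB1, POU2AF1 and JCHAIN) were expressed in all 8 libraries, with summed levels of 4582 to 4644 CPM in JJN3 with DMSO and 4336 to 4532 CPM with THZ1. The sums were 3263 to 3432 CPM in the libraries labelled H929 DMSO and 9721 to 9777 CPM in those labelled H929 THZ1. The libraries under the H929 labels also differed in some transcripts that distinguish lines, though not in all. FGFR3, the gene activated by the translocation that the study lists for H929, had 45 and 285 counts under the label H929 DMSO and 14117 and 13411 under H929 THZ1, against 0 to 2 in JJN3. CD74, the invariant chain of class II antigen presentation, had 138069 and 113159 counts against 3 and 24, and the epithelial adhesion molecule EPCAM had 2391 and 2249 against 1 and 6. MAF, the transcription factor gene translocated in JJN3, had 18006 and 16310 counts under H929 DMSO and 2729 and 2942 under H929 THZ1. In JJN3 it had 16305 and 16840 in the DMSO libraries and 8873 and 10362 in the THZ1 libraries. The study reports MAF activation in H929 as well, with a large enhancer cluster at the gene. By qRT-PCR it found less MAF mRNA in both lines after THZ1 at a lower dose. CCND1 was alike under the H929 labels, with 1766 and 1806 counts for DMSO and 1540 and 1566 for THZ1, against 0 to 2 in JJN3. WHSC1 had 6544 and 7026 counts under H929 DMSO and 15702 and 16276 under H929 THZ1. CCND2 had 13737 and 12324 counts under H929 DMSO and 8051 and 8178 under H929 THZ1. Y-linked genes are not reported here. Markers of other cell types differed in both directions. The summed level of 6 stromal and epithelial markers was 211 to 217 CPM under H929 DMSO, nearly all of it EPCAM and KRT18, and 1.37 to 1.58 CPM under H929 THZ1. Of the 6 myeloid markers ITGAM had 607 and 463 counts under H929 DMSO and 0 and 0 under H929 THZ1, while the other 5 had at most 14 counts in any of these libraries, and LYZ, FCGR3A and CD68 had 0 or 1 counts throughout. T cell markers summed to 2.31 to 2.60 CPM under H929 DMSO and 36.5 to 36.9 CPM under H929 THZ1, and B cell markers to 0.323 to 0.388 CPM and 1.43 to 1.52 CPM. In JJN3 the stromal and epithelial sum was 70.0 to 87.7 CPM and the myeloid sum 0.0512 to 0.489 CPM. The part of these markers in any antigen result was not tested. Treatment and the source of the cells cannot be told apart under the H929 labels. The values are therefore given for the libraries as labelled, and every result that rests on them is kept apart from those of JJN3, which use JJN3 libraries alone.

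Of the 9 antigens, 8 passed the filter on low counts in JJN3, and 5 were lower after THZ1: TNFRSF17, SLAMF7, NCAM1, FCRL5 and GPRC5D. None of the 8 was called higher by edgeR, against 1 with a positive change at an unadjusted p under 0.05 (CD28) and 0 by DESeq2. A gene was called at an adjusted p under 0.05 from edgeR's quasi-likelihood test and a log2 fold change beyond 0.5, the limits of the study. Among all 13984 genes tested in JJN3, 21.3% were called lower and 20.6% higher. The median log2 fold change was -0.98 for the 8 antigens and -0.00036 for all genes. In these bulk libraries fewer cells of a type and less RNA per cell cannot be told apart. In every comparison here the scaling makes a change relative to the other genes of the library. A change in total RNA per cell would not show, so a gene called higher may only have fallen less than the rest. Of the plasma cell markers, IRF4 (log2 fold change -0.55), XBP1 (-0.61) and MZB1 (-1.05) fell as well, while PRDM1 (0.49, edgeR adjusted p = 0.000843), JCHAIN (0.27) and POU2AF1 (-0.21) were not called. The part of these markers in the antigen result was not tested.

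Most antigens were higher under the label H929 THZ1 than under H929 DMSO. In that comparison 7 antigens passed the filter, 6 were called higher (SDC1, TNFRSF17, SLAMF7, CD28, NCAM1 and GPRC5D) and 1 lower (CD38), while 33.1% of the 14863 genes tested were called higher and 32.6% lower. The 7 had a median log2 fold change of 3.61, and all genes of 0.014. Together the 9 antigens took 0.0411% to 0.0442% of the counts in JJN3 with DMSO and 0.0278% to 0.0299% with THZ1. Their share was 0.0504% to 0.0559% in the libraries labelled H929 DMSO and 0.334% to 0.341% in those labelled H929 THZ1. Of the 6 plasma cell markers, 5 were called higher in the same comparison and MZB1 lower (-1.07), and their part in the result was not tested.

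**Figure D1:**
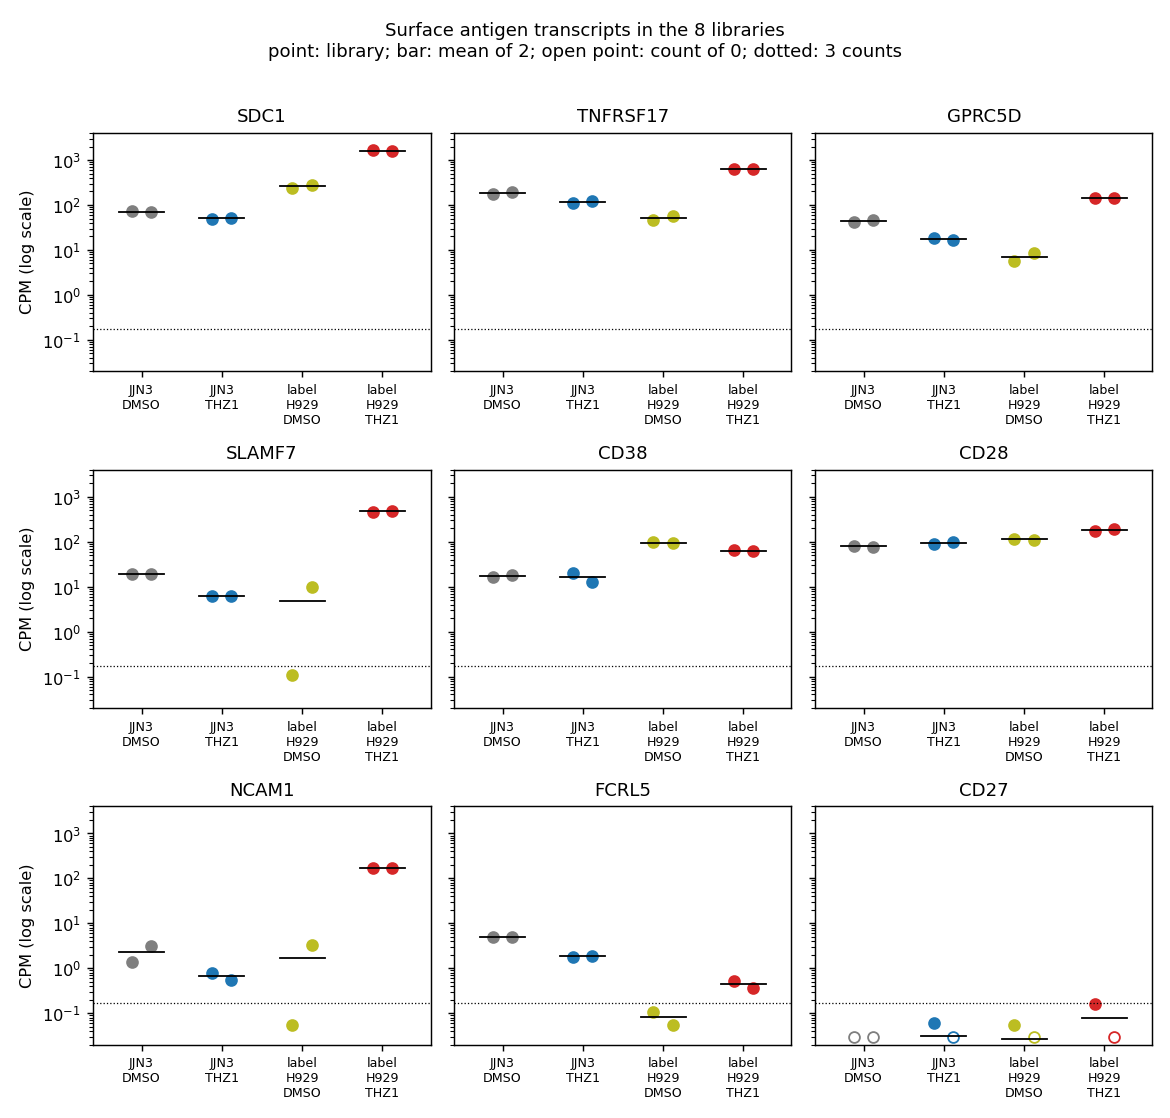
Level of each antigen in every library, as CPM on a log axis, for JJN3 and for the libraries under the H929 labels. Points are libraries and bars the mean of 2, and the dotted line marks 3 counts. The libraries labelled H929 THZ1 lie highest for 6 antigens, CD38 is highest under H929 DMSO and FCRL5 in JJN3 with DMSO, and CD27 is at or under 3 counts throughout.

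The difference between the responses, taken over all 8 libraries as the change under the H929 labels minus the change in JJN3, was called for 6 of the 8 antigens tested. All 6 were positive (SDC1, TNFRSF17, SLAMF7, NCAM1, FCRL5 and GPRC5D), against 28.1% of all 16122 genes called positive and 25.5% negative. FCRL5 did not pass the filter under the H929 labels alone, so its response there was not tested. Its difference rests on the JJN3 libraries and on low H929-labelled counts, 2 and 1 for DMSO and 10 and 7 for THZ1. None was called negative by edgeR, with 1 negative at an unadjusted p under 0.05 (CD38) and 0 called by DESeq2. CD38 (-0.49, SE 0.19, edgeR adjusted p = 0.0317) and CD28 (0.44, SE 0.10, adjusted p = 0.0012) stayed within the limit of 0.5.

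Between the DMSO groups, H929-labelled libraries held less of 4 antigens than JJN3 (TNFRSF17, SLAMF7, FCRL5 and GPRC5D) and more of 3 (SDC1, CD38 and CD28), where 30.7% of genes were called lower and 30.8% higher. Between the THZ1 groups, 7 antigens were higher under the H929 label and FCRL5 alone was lower, against 31.6% of genes called higher and 32.3% lower. The comparisons share libraries, so their counts are not independent of each other.

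**Figure D2:**
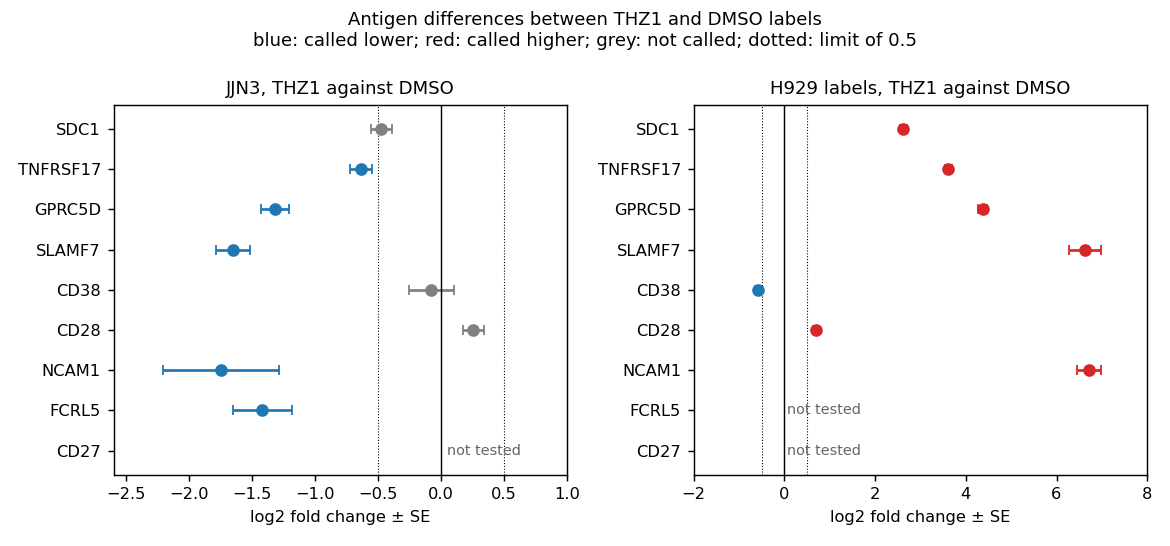
Log2 fold change of each antigen between THZ1 and DMSO, in JJN3 (left) and under the H929 labels (right), from edgeR. Error bars are the SE derived from the test statistic. In JJN3 the 5 antigens called lower lie between -1.75 and -0.64, and under the H929 labels the 6 called higher lie between 0.69 and 6.72.

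TNFRSF17 (ENSG00000048462, GRCh37 chr16:12059067-12061925, plus strand) passes BAFF and APRIL signals to plasma cells and is cut from the surface by gamma-secretase. It stood at 173 and 191 CPM in JJN3 with DMSO and at 111 and 120.4 CPM with THZ1. Both THZ1 libraries were below both DMSO libraries, and TNFRSF17 fell by 0.64 on the log2 scale (SE 0.087, edgeR adjusted p = 9.64e-05). The levels were 46.0 and 55.7 CPM under the label H929 DMSO and 622 and 618 CPM under H929 THZ1. There the groups were further apart, by a log2 fold change of 3.61 (SE 0.075, edgeR adjusted p = 9.74e-16), and the difference from JJN3 was 4.26 (SE 0.13). The H929 DMSO libraries were thus the lowest of the 4 groups, with a log2 difference of -1.84 from JJN3 with DMSO, and the H929 THZ1 libraries the highest, with no overlap between neighbouring groups.

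CD27 (ENSG00000139193, GRCh37 chr12:6554121-6560884, plus strand), the other receptor of the TNF family among the 9, was not detectable at this depth. Its counts were 0 and 0 in JJN3 with DMSO, 1 and 0 with THZ1, 1 and 0 under H929 DMSO and 3 and 0 under H929 THZ1. All were at or under the limit of 3 counts, and no fold change is given. Its ligand CD70 was present in JJN3, with 480 and 486 counts in the DMSO libraries and 122 and 177 in the THZ1 libraries, a log2 fold change of -1.503 (SE 0.14, edgeR adjusted p = 8.35e-06). CD70 was lower under the H929 labels too, by a log2 fold change of -6.32.

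Among 10 ligands, sister receptors and adaptors of TNFRSF17 and CD27, 7 were tested in JJN3, of which 2 were called lower and 1 higher. For this list and those that follow, 21.3% of all genes tested in JJN3 were called lower and 20.6% higher. Besides CD70, TRAF2, an adaptor of these receptors, fell by 0.80 (SE 0.15), and the ligand gene TNFSF13B, which encodes BAFF, was higher (log2 fold change 1.54, SE 0.53, edgeR adjusted p = 0.0277), a call that DESeq2 did not make. Of 9 tested under the H929 labels, 6 were lower and 2 higher. Under these labels 32.6% of all genes tested were called lower and 33.1% higher. TNFRSF13B, the sister receptor TACI (log2 fold change -5.51), and TRAF2 (-0.74) were lower, and the adaptors TRAF6 (1.73) and TRAF3 (0.86) were higher. Of the 6 subunits of gamma-secretase, 2 of the 5 tested in JJN3 fell, APH1A (-0.87, SE 0.083) and PSENEN (-0.87, SE 0.13), and none was called higher, with 0 positive at an unadjusted p under 0.05. In the H929-labelled libraries APH1B (5.94, 2 and 5 counts for DMSO, 204 and 255 for THZ1) and the scaffold NCSTN (1.46) were higher. None of the 6 was called lower there, with 1 negative at an unadjusted p under 0.05. By DESeq2, 0 of these genes were higher with THZ1 in JJN3, and for the H929 labels 0 were lower.

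SDC1 (ENSG00000115884, GRCh37 chr2:20400558-20425194, minus strand) is the proteoglycan by which plasma cells are usually purified. In JJN3 it stood at 72.2 and 70.0 CPM with DMSO and at 49.7 and 51.5 CPM with THZ1. The groups did not overlap and the test passed (edgeR adjusted p = 0.000466), but the log2 fold change of -0.47 (SE 0.081) lay just within the limit of 0.5, so SDC1 was not called. It went past the limit with total counts in place of TMM (-0.58), with no filter (-0.52), without DMSO library 2 (-0.51) and without THZ1 library 2 (-0.50). With the H929 labels SDC1 stood at 244 and 279.8 CPM for DMSO and at 1656 and 1556 CPM for THZ1. That is a log2 fold change of 2.62 (SE 0.072, edgeR adjusted p = 2.14e-14), and the response differed from JJN3 by 3.11 (SE 0.12). The 4 groups were ordered H929 THZ1, H929 DMSO, JJN3 DMSO and JJN3 THZ1, without overlap between neighbours.

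The heparan sulfate chains of SDC1 are built by a series of enzymes, of which 17 were listed. In JJN3, 15 were tested, with 2 lower and 3 higher. B3GALT6, which adds a galactose of the linker between chain and protein, fell by 1.14 (SE 0.099), and XYLT2, which starts the linker, fell by 0.72 (SE 0.15). The polymerase subunit EXT2 (0.89), the epimerase GLCE (0.66) and the linker kinase FAM20B (0.57) were higher. Among 15 tested under the H929 labels, 4 were lower and 8 higher. B3GALT6 (-1.87) and the sulfotransferase HS6ST1 (-1.84) were lower there, while XYLT1 (6.29), GLCE (2.64), EXT2 (1.41), FAM20B (0.62) and XYLT2 (0.58) were higher. The H929 DMSO libraries disagreed for XYLT1, with 3 and 57 counts, against 2357 and 2530 under H929 THZ1. HS3ST1 was at or under 3 counts in both H929 DMSO libraries and at least 5.79-fold higher under H929 THZ1.

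Of 9 other syndecans, their adaptor and the enzymes that shed or trim SDC1, 6 were tested in JJN3, and edgeR called 4 higher and 0 lower (0 negative at an unadjusted p under 0.05). DESeq2 called 3 higher and 0 lower. The genes that edgeR called were SDCBP, the adaptor syntenin that binds syndecan tails (log2 fold change 1.17, SE 0.079), the sheddase ADAM17 (0.82, SE 0.12), SDC4 (0.79) and the heparanase HPSE (0.54), which DESeq2 did not call (adjusted p = 0.208). Of the 9 tested under the H929 labels, 5 were lower and 2 higher. SDCBP (2.01) and SDC3 (2.14) were higher, and SDC4 was lower (-3.36). SDC2 and HPSE were at or under 3 counts under H929 THZ1, at least 18.6-fold and at least 28.5-fold lower than under H929 DMSO.

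GPRC5D (ENSG00000111291, GRCh37 chr12:13093509-13105104, minus strand) is an orphan receptor of the same family as GPRC5A, GPRC5B and GPRC5C. It stood at 41.2 and 47.0 CPM in JJN3 with DMSO and at 18.5 and 16.5 CPM with THZ1. The groups were well separated, and GPRC5D fell by 1.32 (SE 0.11, edgeR adjusted p = 4.29e-06). The H929-labelled libraries had it at 5.54 and 8.42 CPM for DMSO and at 144 and 143 CPM for THZ1, a log2 fold change of 4.37 (SE 0.11, edgeR adjusted p = 5.46e-15). The responses differed by 5.70 (SE 0.18), and no neighbouring groups overlapped. None of the other 3 family members was detected in JJN3, with 0 counts in all 4 libraries, and in the other libraries GPRC5A had 0 to 3 counts and GPRC5C 0 to 3. GPRC5B had 3 and 11 counts under H929 DMSO and 21 and 13 under H929 THZ1 (log2 fold change 1.22, SE 0.52, edgeR adjusted p = 0.0409), a call that was lost with DESeq2 (adjusted p = 0.257).

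SLAMF7 (ENSG00000026751, GRCh37 chr1:160708847-160724611, plus strand) is the target of the antibody elotuzumab and lies within a cluster of SLAM receptor genes. It was at 19.2 and 19.2 CPM in JJN3 with DMSO and 6.05 and 6.06 CPM with THZ1. The replicates were close together and the groups apart, with a log2 fold change of -1.65 (SE 0.14, edgeR adjusted p = 3.34e-06). Under the label H929 DMSO the libraries disagreed, with 2 counts in replicate 1 and 174 in replicate 2 (0.108 and 9.64 CPM). Both labelled H929 THZ1 were far above them, at 470.4 and 485 CPM. The fitted log2 fold change was 6.64 (SE 0.36, edgeR adjusted p = 5.95e-11), and without replicate 2 of the DMSO label SLAMF7 was at least 2958-fold higher. As each library was left out the fitted value ran from 5.62 to 12.05, far wider than the SE. The difference from JJN3 was 8.29 (SE 0.63). Between the DMSO groups SLAMF7 was lower under the H929 label than in JJN3 (-1.99), a call that DESeq2 did not make (adjusted p = 0.292), and H929 DMSO replicates spanned the level of JJN3 with THZ1.

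The nearest SLAM genes were CD48, 27.2 kb away, and LY9, 41.3 kb away, on the same chromosome. CD48, the ligand of the receptor CD244, was counted 1565 and 1623 times in the DMSO libraries of JJN3 and 407 and 476 times in the THZ1 libraries, a log2 fold change of -1.66 (SE 0.088, edgeR adjusted p = 6.46e-07), close in size to that of SLAMF7. It was higher under the H929 labels (3.96), as were LY9 (5.90, SE 0.16) and the adaptor SH2D1B (5.24, SE 0.45). SH2D1B had 0 and 5 counts under H929 DMSO and 110 and 95 under H929 THZ1. Of 11 SLAM receptors and adaptors, 5 were tested in JJN3, with CD48 alone lower and the adaptor SH2D1A alone higher (1.30, SE 0.24). All 4 tested under the H929 labels were higher, where 33.1% of all genes tested were.

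Replicate 2 of the label H929 DMSO exceeded replicate 1 in 5 antigens by 1.57% to 2.22% of the level under H929 THZ1. The excess was 2.22% for SDC1, 1.57% for TNFRSF17, 2.00% for SLAMF7, 1.87% for NCAM1 and 2.01% for GPRC5D, whose levels span more than an order of magnitude. The other antigens went the other way. Replicate 2 was below replicate 1 for CD38 (-9.21%) and CD28 (-2.89%), and for FCRL5 and CD27, which had at most 3 counts in both. A wider set was chosen after these values were seen. It held 50 genes with at most 3 counts in replicate 1 and at least 1000 counts in both libraries labelled H929 THZ1, SLAMF7 and NCAM1 among them. In these, replicate 2 held 1.17% to 2.66% of the H929 THZ1 level (median 2.01%), and none of the 50 was at or under 3 counts in it. Choosing genes that are low in replicate 1 favours a higher value in replicate 2, so the set is a description and not a test. Of the 50, 6 were also at or under 3 counts in all JJN3 libraries, and their percentages were 1.72 to 2.36. The cause was not tested.

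NCAM1 (ENSG00000149294, GRCh37 chr11:112831997-113149158, plus strand) is an adhesion molecule whose presence on plasma cells is used to mark malignant clones. Its counts in JJN3 were 27 and 62 with DMSO and 13 and 10 with THZ1. NCAM1 was called lower (log2 fold change -1.75, SE 0.46, edgeR adjusted p = 0.00702), yet the DMSO libraries differed more from each other than the THZ1 libraries did. Without DMSO library 2 the change was -1.05 and no longer called (adjusted p = 0.153), and in a fit over all 8 libraries the adjusted p was 0.0657. The H929-labelled libraries had 1 and 59 NCAM1 counts for DMSO and 3246 and 3292 for THZ1. The fitted log2 fold change was 6.72 (SE 0.27, edgeR adjusted p = 1.51e-12), and without DMSO replicate 2 NCAM1 was at least 1067-fold higher. As each library was left out the fitted value ran from 5.71 to 11.5, far wider than the SE. The response differed from JJN3 by 8.47 (SE 0.88). NCAM1 also marks natural killer cells. In JJN3, 5 other markers of those cells summed to 4.71 to 5.79 CPM, above the level of NCAM1, with 68 to 91 counts of KLRF1 and 0 of KLRD1. Their sums were 0.33 to 0.59 CPM under H929 DMSO and 0.211 to 0.315 CPM under H929 THZ1, where no marker had more than 4 counts. The part of these markers in the NCAM1 results was not tested.

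Between the DMSO groups NCAM1 was not called (log2 fold change -0.48, SE 0.62, edgeR adjusted p = 0.489), and the groups overlapped. Without replicate 2 of H929 DMSO it was called lower there (-5.25, adjusted p = 0.000102), and the sign turned without JJN3 DMSO library 2 (0.22) or without replicate 1 of H929 DMSO (0.51). Of 7 sister molecules, polysialyltransferases and signalling partners of NCAM1, 5 were tested in JJN3. ST8SIA2, which attaches the polysialic acid that NCAM1 carries, fell by 0.77 (SE 0.078), and the kinase FYN was higher (0.67, SE 0.083). Between the H929 labels ST8SIA2 (3.75), ST8SIA4 (2.05) and FYN (1.86) were higher and NCAM2 was lower (-2.39).

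FCRL5 (ENSG00000143297, GRCh37 chr1:157483167-157522305, minus strand) binds immunoglobulin G on B cells and plasma cells. It was at 5.02 and 4.92 CPM in JJN3 with DMSO and at 1.77 and 1.89 CPM with THZ1. FCRL5 fell by 1.42 (SE 0.23, edgeR adjusted p = 0.000362) with no overlap between groups. Besides CD27, FCRL5 was the antigen that was nearly absent under the H929 labels, with 2 and 1 counts for DMSO and 10 and 7 for THZ1. Both DMSO values lie at or under the limit of 3 counts, so FCRL5 was at least 2.73-fold higher under H929 THZ1, did not pass the filter in that comparison, and was at least 30.3-fold lower in H929 DMSO than in JJN3 with DMSO. Between the THZ1 groups it was lower under the H929 label (log2 difference -2.02, SE 0.37, edgeR adjusted p = 0.000112). The fitted difference in response of 3.79 (SE 0.73) depends on the prior count, because of the DMSO values.

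Of 10 other Fc receptor-like genes and associated kinases and phosphatases, 5 were tested in JJN3 and 1 was called, the phosphatase PTPN6, which was higher (0.90, SE 0.25, edgeR adjusted p = 0.00864). No member of the list was called lower by edgeR or DESeq2, and 1 was negative at an unadjusted p under 0.05. PTPN6 was also higher under the H929 labels (4.13, SE 0.11). There FCRL2 was at least 32.0-fold higher, the kinase SYK at least 5.70-fold lower and FCRLA lower (-5.20).

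CD38 (ENSG00000004468, GRCh37 chr4:15779898-15854855, plus strand), the target of daratumumab, was not called in JJN3. It stood at 16.8 and 18.4 CPM with DMSO and at 20.2 and 12.9 CPM with THZ1. The THZ1 libraries lay on both sides of the DMSO libraries, and the log2 fold change was -0.08 (SE 0.18, edgeR adjusted p = 0.729). Leaving out THZ1 library 2 turned the sign (0.22, adjusted p = 0.153), so no direction is given for JJN3. Under the H929 labels CD38 was the only antigen called lower, at 97.5 and 91.7 CPM for DMSO and 63.8 and 61.9 CPM for THZ1. The log2 fold change there was -0.58 (SE 0.061, edgeR adjusted p = 2.54e-07). Both H929 groups were above both JJN3 groups, by 2.42 between the DMSO labels (SE 0.13) and 1.93 between the THZ1 labels (SE 0.13). The difference in response was not called, and it was called without JJN3 THZ1 library 2 (-0.77, adjusted p = 3.46e-05).

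Of 8 related genes, the sister enzyme, the ligand CD31 and the enzymes of NAD and adenosine outside and inside the cell, 6 were tested in JJN3. ENPP1, an ectoenzyme that cleaves nucleotides, was higher (1.58, SE 0.12, edgeR adjusted p = 2.56e-06), and edgeR and DESeq2 called 0 lower, with 1 negative at an unadjusted p under 0.05. ENPP1 was higher under the H929 labels as well (1.74), as was adenosine deaminase, ADA (2.37), while NMNAT1 (-1.24) and ENTPD1 (-0.64) were lower, among 2 higher and 3 lower in all.

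CD28 (ENSG00000178562, GRCh37 chr2:204571198-204603635, plus strand), the costimulatory receptor of T cells, varied least among the detected antigens. In JJN3 it was at 79.2 and 78.1 CPM with DMSO and at 88.8 and 97.1 CPM with THZ1. The THZ1 libraries were above the DMSO libraries, and the log2 fold change of 0.26 (SE 0.082, edgeR adjusted p = 0.0189) was within the limit of 0.5. CD28 was called higher under the H929 labels, at 116 and 110.3 CPM for DMSO and 176 and 187 CPM for THZ1 (0.69, SE 0.056, edgeR adjusted p = 1.02e-08). All 4 groups were separate, in the order H929 THZ1, H929 DMSO, JJN3 THZ1 and JJN3 DMSO, but the call between the DMSO groups (0.52, SE 0.072) sat at the limit and was lost with total counts (0.49), with no filter (0.49), without JJN3 DMSO library 2 (0.50) and without H929 DMSO replicate 1 (0.48). CD28 is also a T cell gene. The summed level of 6 T cell markers was 2.10 to 2.48 CPM in JJN3 with DMSO and 5.56 to 5.81 CPM with THZ1. In JJN3 the 2 tested, CD3E (log2 fold change 1.08) and TRAC (1.94), were called higher by edgeR. DESeq2 did not call CD3E (adjusted p = 0.0617). The sum was highest under H929 THZ1. There CD3E had 640 and 650 counts and CD3D had 0 in both libraries, and the part of T cell transcripts in the CD28 level was not tested.

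Of 9 ligands, sister receptors and effectors of CD28, 5 were tested in JJN3 and ICOSLG, the ligand of ICOS, fell by 0.84 (SE 0.16, edgeR adjusted p = 0.00118). No gene of the list was called higher there by edgeR or DESeq2, with 1 positive at an unadjusted p under 0.05. For the H929 labels, 5 of 6 were lower and 1 higher. ICOSLG was lower (-3.08), the CD28 ligand CD86 was at least 214-fold lower, PDCD1LG2 at least 8.12-fold lower, and the exchange factor VAV1 was higher (2.71).

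Levels of different genes can be compared only per length, here as CPM per kb of annotated exon (GENCODE 44 on GRCh37, all exons of a gene merged). In JJN3 with DMSO, TNFRSF17 led at 179 ± 12.8 (SD, n = 2), followed by GPRC5D at 32.8 ± 3.06, SDC1 at 19.7 ± 0.43 and CD28 at 16.1 ± 0.16. SLAMF7 (3.97), CD38 (2.57), FCRL5 (0.40) and NCAM1 (0.18) were lower, in that order. With THZ1 the order in JJN3 changed, since TNFRSF17 still led at 114 ± 6.37 while GPRC5D, at 13.0 ± 1.06, came after SDC1 at 14.0 ± 0.37, from which it did not differ beyond its spread. CD28 came next after TNFRSF17 at 19.03 ± 1.20, and CD38 (2.42) was above SLAMF7 (1.25). Under H929 DMSO, SDC1 led at 72.5 ± 6.99, ahead of TNFRSF17 at 50.1 ± 6.79 and CD28 at 23.1 ± 0.76. Under H929 THZ1, TNFRSF17 led at 611 ± 2.60, followed by SDC1 at 444 ± 19.8, GPRC5D at 106 ± 0.48 and SLAMF7 at 98.8 ± 2.08. These levels assume that every annotated exon is used, which the counts cannot show.

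**Figure D3:**
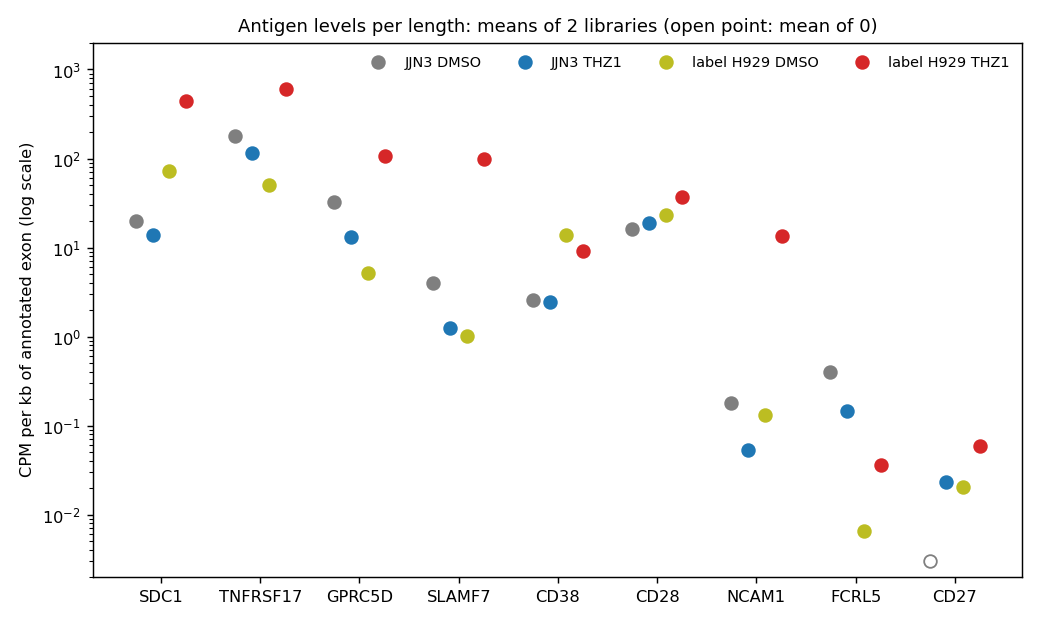
Mean level of each antigen per kb of annotated exon on a log axis, for the 4 groups of 2 libraries. TNFRSF17 is the highest antigen in 3 groups, at 179, 114 and 611 CPM per kb, and SDC1 the highest under H929 DMSO, at 72.5 CPM per kb.

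Promoter sequences are shown for 4 antigens, 2 that fell in JJN3 (GPRC5D and FCRL5) and 2 that were not called there (CD38 and CD28), so that the start regions of both kinds can be read side by side. RefSeq (GRCh38.p14, a later build than the one the reads were aligned to) gave a start for 6 of the 9 antigens, and SLAMF7, TNFRSF17 and NCAM1 had no entry. Each run is the 250 bases before the start, 5′ to 3′ on the strand of the gene. Capitals mark matches, on either strand, to any of 5 motifs.
GPRC5D, chr12:12952171-12952420, minus strand: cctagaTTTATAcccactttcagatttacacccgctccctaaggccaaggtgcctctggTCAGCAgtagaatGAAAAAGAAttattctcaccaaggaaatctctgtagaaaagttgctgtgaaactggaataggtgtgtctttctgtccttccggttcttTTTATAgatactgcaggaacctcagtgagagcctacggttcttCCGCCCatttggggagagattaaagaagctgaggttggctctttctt
FCRL5, chr1:157552516-157552765, minus strand: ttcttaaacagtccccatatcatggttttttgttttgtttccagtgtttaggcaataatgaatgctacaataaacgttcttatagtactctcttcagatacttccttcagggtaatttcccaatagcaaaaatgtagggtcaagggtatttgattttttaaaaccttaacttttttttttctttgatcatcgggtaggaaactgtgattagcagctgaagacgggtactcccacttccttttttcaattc
CD38, chr4:15778078-15778327, plus strand: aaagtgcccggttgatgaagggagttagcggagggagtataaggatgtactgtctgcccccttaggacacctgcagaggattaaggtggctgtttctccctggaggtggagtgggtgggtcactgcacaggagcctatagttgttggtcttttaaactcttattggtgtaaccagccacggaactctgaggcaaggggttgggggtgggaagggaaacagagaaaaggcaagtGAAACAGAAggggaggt
CD28, chr2:203706389-203706638, plus strand: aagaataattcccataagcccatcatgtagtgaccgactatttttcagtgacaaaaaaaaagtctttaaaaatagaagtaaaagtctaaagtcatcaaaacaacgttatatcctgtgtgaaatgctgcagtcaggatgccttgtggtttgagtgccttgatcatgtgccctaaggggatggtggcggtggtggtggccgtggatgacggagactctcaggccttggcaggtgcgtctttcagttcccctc

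The GPRC5D window held 5 matches that do not overlap each other: TATA boxes with their first base 244 and 90 bases before the start, the MAF half-site core 191 bases before it, the IRF-type repeat 178 bases before it and a GC box 47 bases before it. CD38 held an IRF-type repeat 17 bases before its start. No motif of the 5 was found in the windows of FCRL5, CD28 or CD27, and the windows at both starts of SDC1 held a GC box, 76 and 68 bases before the start. The IRF-type repeat, searched as GAAANNGAA, the letters that factors such as IRF4 read, was found in 6.88% of the 35116 windows of all genes. The core of a MAF half-site was searched as TGCTGA, part of the longer element to which large MAF proteins bind, and it was found in 14.0% of these windows. The E-box, the element of MYC and related factors, was searched as CACGTG, and 6.34% of all windows held it, though none of the windows of the 6 matched antigens did. The TATA box, the element that positions the start of transcription at some promoters, was searched as TATAAA, and 10.7% of all windows held it. The GC box, a common element of promoters without a TATA box, was searched as GGGCGG, and 42.6% of all windows held it. GC content was 34.8% in the FCRL5 window, 44.4% in GPRC5D, 45.2% in CD28 and 52.4% in CD38. A match is a run of letters and not a site shown to be bound, and the windows of GPRC5D and FCRL5 shared none of these motifs.

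Over the 12 companion lists together, 112 genes, the JJN3 changes were about even. Of 77 genes tested, 15 were called lower and 19 higher, with a median log2 fold change of 0.0067. Among all genes tested in JJN3, 21.3% were called lower and 20.6% higher. In the H929-labelled libraries 30 of 84 were lower and 37 higher (median 0.031), against 32.6% and 33.1% of all genes tested. These counts are a description, and the antigens were not tested against the lists.

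**Figure D4:**
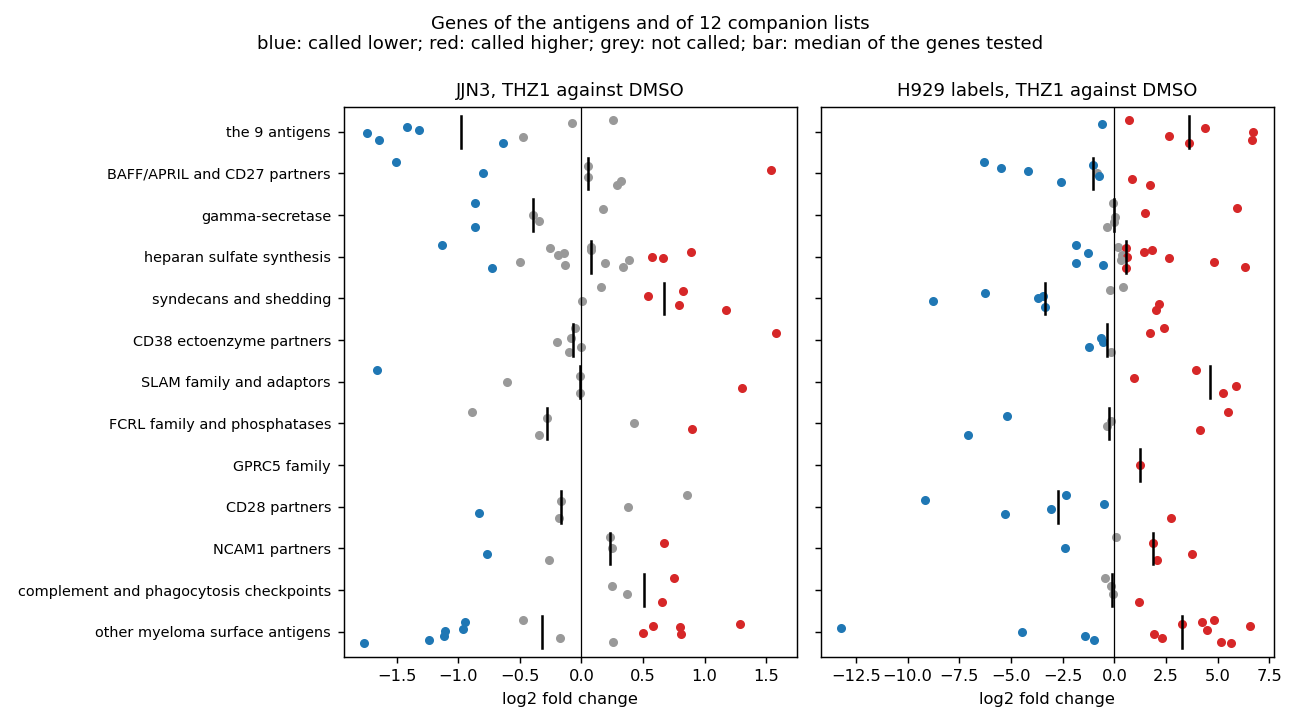
Log2 fold change of every tested gene of the 9 antigens and the 12 companion lists, in JJN3 (left) and under the H929 labels (right). Points are genes, with fitted values also where a group is at or under 3 counts, and bars are medians. The median of the antigens is -0.98 in JJN3 and 3.61 under the H929 labels, and the medians of the companion genes together are 0.0067 and 0.031.

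A further 17 antigens of myeloma panels split in JJN3, with 6 of 14 tested lower and 5 higher by edgeR. By edgeR, 21.3% of all genes tested were lower and 20.6% higher. DESeq2 called 4 of these antigens lower and 4 higher, without MS4A1 (adjusted p = 0.052), CD200 (0.282) or IL6ST. The falls were led by SEMA4A, a semaphorin on plasma cells (-1.76, SE 0.39), and MS4A1, which encodes CD20 (-1.24, SE 0.36), and the rises by CD44, a hyaluronan receptor (1.29, SE 0.086), and ITGB7, an integrin subunit (0.81, SE 0.11). KIT (-1.12), the interleukin 6 receptor IL6R (-1.11), ICAM1 (-0.97) and CD200 (-0.94) fell too, and CD81 (0.80), CD74 (0.58) and IL6ST (0.50) were higher. For the H929 labels, 4 of 13 were lower and 9 higher, against 32.6% and 33.1% of all genes tested. Among those higher was CD44, at 2 and 305 counts for DMSO against 14927 and 15298 for THZ1. SEMA4A (5.63), CCR10 (4.83), CD81 (4.46), CD200 (4.25), CD33 (3.26), ITGB7 (2.32) and IL6R (1.92) were higher there, and CD74 (-13.21), ICAM1 (-4.47), IL6ST (-1.41) and LILRB4 (-0.98) were lower. PTPRC, which encodes CD45, was at least 7.40-fold higher. By edgeR, IL6R, SEMA4A and CD200 were lower with THZ1 in JJN3 and higher under H929 THZ1, as TNFRSF17, SLAMF7, NCAM1 and GPRC5D were. CD74 and IL6ST went the other way. How often all genes were called in opposite directions was not counted, so this is a description only.

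Of 5 surface proteins that limit the effect of therapeutic antibodies, 4 were tested in JJN3. The complement regulators CD46 (0.75, SE 0.082, edgeR adjusted p = 2.05e-05) and CD59 (0.65, SE 0.091) were higher, and edgeR and DESeq2 called 0 lower, with 0 negative at an unadjusted p under 0.05. CD59 had 7262 and 7826 counts in the DMSO libraries and 10239 and 10496 in the THZ1 libraries. CD59 was also higher under the H929 labels (1.18, SE 0.051), where edgeR and DESeq2 called 0 of the 4 lower and 2 were negative at an unadjusted p under 0.05.

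The pattern of 7 antigens across the 8 libraries was compared with that of 9675 genes of at least log2 CPM 3, as Pearson's r of log2 CPM. The genes most like SDC1 were HMHA1 (r = 0.999) and PHRF1 (0.998), those most like TNFRSF17 were UAP1 (0.999) and ZIC2 (0.998), and those most like GPRC5D were NAT1 (0.994) and MBD1 (0.992). GYPC was among the 2 genes most like both SLAMF7 (0.989) and NCAM1 (0.987), next to RAB37 (0.983) and HRASLS2 (0.992). CD28 was nearest to WIPF1 and NUP50 (both 0.997), and FCRL5 to FBXO44 and LRIG2 (both 0.997). The 8 points fall into 4 groups of replicates, so r describes mainly how the groups differ, and it is given as a description.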

How the data were processed

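Myeloma lines were profiled by RNA-seq, with 2 libraries for each of 4 groups taken from the sample labels. Per the study's methods and the submitters' processing notes, the authors aligned reads to hg19 with STAR 2.5.2a, kept reads mapping to 1 place, and deposited counts per Ensembl gene from featureCounts 1.6.1, without normalization. The strand setting was not given in the sources used here, so counts of overlapping and antisense genes are uncertain. The deposited tables of the authors' own DESeq2 1.12.4 comparisons (mean normalized signal, log2 fold change, its standard error, a test statistic or score, p-value and adjusted p-value) were used for gene symbols only.

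Counts were fitted across all genes with edgeR 4.0.16 in R 4.3.3 (TMM, filterByExpr, quasi-likelihood test, Benjamini-Hochberg adjustment). THZ1 was compared with DMSO within a line label over its 4 libraries, and the difference in response and the comparisons between line labels over all 8. Genes were called at an adjusted p under 0.05 and a log2 fold change beyond 0.5. CPM are scaled by TMM. The SE of a log2 fold change is its size divided by the square root of the F statistic of the quasi-likelihood test. It is not a separate estimate and does not show how far a single library moves the value. Groups with at most 3 counts in both libraries are given as bounds. With 2 libraries against 2 the smallest exact p is 0.333, so significance rests on the model across genes. The functions were tested on simulated data. DESeq2 1.42.0, other scalings and filters, other limits, a replicate block and leaving out each library were alternatives.

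All 9 antigens and the 12 companion lists were chosen with earlier results of these data known. From each list the text names up to 2 called genes with the largest falls and 2 with the largest rises per comparison, and any gene called under both line labels. The further called antigens of myeloma panels, and the genes that show how the H929 labels differ, were named after their values were seen. Promoter windows came from RefSeq. Matplotlib 3.10.9 drew the plots. The genes most like CD38 in pattern are not reported here.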

Additional observations from a re-analysis of the deposited data

Results flagged for a closer look

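The difference between the responses, the log2 change under the H929 labels minus that in JJN3, was tested over all 8 libraries with edgeR, and it is listed here for each antigen called in it, and for each companion gene called in it that was also called in JJN3 and under the H929 labels. Treatment and the source of the cells cannot be told apart under the H929 labels, and the cause of these differences was not tested.

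Among the antigens the difference was 3.11 for SDC1, 4.26 for TNFRSF17, 8.29 for SLAMF7, 8.47 for NCAM1, 3.79 for FCRL5 and 5.70 for GPRC5D. The H929 DMSO libraries disagreed for SLAMF7 (2 and 174 counts) and NCAM1 (1 and 59 counts). As each library was left out, the difference ran from 7.305 to 13.72 for SLAMF7 and from 7.492 to 13.27 for NCAM1. Adjusted p-values from edgeR ran from 2.96e-13 for TNFRSF17 to 0.000274 for FCRL5.

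Of the companion genes, those with a more positive change under the H929 labels were XYLT2 (1.32), EXT2 (0.53), GLCE (1.99), SDCBP (0.85), CD48 (5.62), PTPN6 (3.23), ST8SIA2 (4.52), FYN (1.20), CD59 (0.54), CD81 (3.66), CD200 (5.21), CD44 (5.29), ITGB7 (1.52), IL6R (3.04) and SEMA4A (7.40). A more negative change was found for CD70 (-4.81), B3GALT6 (-0.72), SDC4 (-4.14), HPSE (-6.77), ICOSLG (-2.24), ICAM1 (-3.50), CD74 (-13.78) and IL6ST (-1.90). The fitted values of FCRL5 and HPSE depend on the prior count, since a group of each was at or under 3 counts. For CD44 the H929 DMSO libraries disagreed as well, with 2 and 305 counts.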

How the results depend on the processing

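Of the counts of antigens called, 144 under the alternatives stayed within 1.5 times of those reported and 4 did not. With no limit on the fold change 1 antigen (CD28) was called higher in JJN3 and 1 (CD38) was called negative in the difference in response. That count of negative calls was 0 to 1 when each library was left out, and 1 without JJN3 THZ1 library 2. With a log2 limit of 1, 0 antigens were called lower under the H929 labels, 7 companion genes were lower and 5 higher in JJN3, 1006 genes were lower and 1397 higher in JJN3, and 3146 genes were lower under the H929 labels. Signs turned in 3 values. CD38 in JJN3 ran from -0.43 to 0.22 as each library was left out, at 0.22 without THZ1 library 2, and NCAM1 between the DMSO groups ran from -5.25 to 0.51, at 0.22 without JJN3 DMSO library 2 and 0.51 without H929 DMSO replicate 1. Total counts in place of TMM shifted the median of all genes in JJN3 to -0.10, made 60.7% of called genes lower against 50.8%, and called SDC1 lower. Levels moved by more than the spread of 2 replicates in 17 cases. With total counts SDC1 was 48.3 CPM and SLAMF7 5.78 CPM in JJN3 with THZ1, SLAMF7 19.5, CD28 79.8 and FCRL5 5.04 CPM in JJN3 with DMSO, and CD38 64.95, TNFRSF17 641, SLAMF7 493.5, NCAM1 178 and GPRC5D 148 CPM under H929 THZ1. With DESeq2's size factors SLAMF7 was 6.10 CPM in JJN3 with THZ1, SLAMF7 18.9, CD28 77.45 and FCRL5 4.89 CPM in JJN3 with DMSO, and TNFRSF17 629, NCAM1 175 and GPRC5D 146 CPM under H929 THZ1. Same-numbered libraries did not deviate together (correlation 0.0034 in JJN3 and -0.012 under the H929 labels), so the numbers do not pair them. With the replicate block 5 antigens were lower and 0 higher in JJN3, and 1 lower and 6 higher under the H929 labels, as without it, with 3013 genes lower and 2889 higher in JJN3 against 2972 and 2877, and no antigen's call changed. Counts of 3 or fewer limit CD27 in all groups and FCRL5 under H929 DMSO.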
